A study of Mus musculus with 58 samples.

Results

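The nuclear-encoded subunits of the mitochondrial respiratory chain were followed through liver and kidney of mice given 1 dose of a chlorinated solvent. Members were the kidney genes whose deposited symbol begins with Nduf followed by a, b, c, s or v and a digit, with Uqcr, with Cox and a digit from 4 to 8 followed by a, b or c, or with Atp5, together with Sdha, Sdhb, Sdhc and Sdhd, and the liver rows of the same RefSeq transcripts. Counts were summed over the transcripts of a symbol. This gave 82 members of 25281 genes, from 100 of 33392 transcripts, with 37 in complex I, 4 in complex II, 8 in complex III, 16 in complex IV and 17 in complex V by their symbols. The rule leaves out the subunit genes Cox4i1 and Cyc1, and it brings in Atp5s and Atp5sl, which are not structural subunits of ATP synthase in current naming.

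Each of the 58 libraries held total RNA of 1 tissue from adult male B6C3F1/J mice of 5 to 6 weeks, although another label gives C57BL/6 as the strain. Mice received trichloroethylene (TCE), tetrachloroethylene (PCE) or vehicle once by stomach tube. The molecules differ at 1 position, where PCE carries chlorine and TCE hydrogen. The vehicle, in which both chemicals were given, was 5% Alkamuls EL-620, a surfactant made from castor oil, in saline at 5 mL/kg. The 4 doses of either chemical are labelled 0.22, 0.67, 2 and 6 mmol/kg. In mg/kg these were 24, 80, 240 and 800 of TCE, or 30, 100, 300 and 1000 of PCE. Each chemical had its own vehicle group in each tissue, which makes 20 groups, of which 18 held 3 libraries. The kidney PCE vehicle group and the liver PCE group at 0.67 mmol/kg held 2. Nothing in the labels ties a replicate number to an animal or batch, so a p-value measures the spread between these libraries, which may be technical. How long after the dose tissue was taken is not given in the sources used here.

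In mitochondria the respiratory chain passes electrons from NADH and succinate to oxygen and stores the energy as a proton gradient across the inner mitochondrial membrane. Complex I (the Nduf genes) takes electrons from NADH, and complex II (the Sdh genes) takes them from succinate as a step of the citric acid cycle. Complex III (Uqcr) hands them to cytochrome c, complex IV (Cox) passes them to oxygen, and complex V (Atp5) uses the gradient to make ATP. Several core subunits are encoded in mitochondrial DNA, whose genes were not analysed here, and the others are encoded in the nucleus and imported. Proximal tubule cells of the kidney rely heavily on this pathway, because their transport of sodium consumes much ATP. Some complex IV subunits exist in a widely expressed form and in a form typical of heart, skeletal muscle or brown fat.

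Reads counted to genes numbered 23247565 to 32420329 in kidney libraries. In liver they numbered 88048143 to 125880542 in the vehicle and 6 mmol/kg groups and 30932385 to 65112568 at the doses between, so that liver depth differed between dose groups. CPM, the usual read count scaled to library depth, here uses library totals scaled over all 58 libraries by trimmed mean of M values (TMM), and RPKM is that value per kilobase of transcript. The 10 hepatocyte markers summed to 143000 to 174200 CPM in the liver libraries of the TCE vehicle group and to 1191 to 1343 CPM in the kidney ones. The 10 proximal tubule markers summed to 47300 to 56770 CPM in those kidney libraries and to 42.0 to 66.9 CPM in the liver ones, as the tissue labels say. Libraries were of whole tissue, in which fewer cells of a type and less RNA per cell cannot be told apart.

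The members took 2.98% to 3.63% of all counted reads in kidney libraries and 1.00% to 1.67% in liver libraries, and these ranges did not overlap. Complex V summed to 9178 ± 414 CPM (SD, n = 3) in the kidney libraries of the TCE vehicle group, complex I to 6051 ± 507, complex IV to 3134 ± 166, complex III to 2698 ± 185 and complex II to 1953 ± 99.5 CPM. In the liver libraries of the same group the sums were 6494 ± 1247 CPM for complex V, 5112 ± 2017 for complex I, 2861 ± 1293 for complex IV, 2436 ± 846 for complex III and 1588 ± 131 CPM for complex II. The order of the sums was the same in both tissues and in each of the 6 libraries. In liver the ranges over the 3 libraries overlapped between complexes V and I, I and IV, and IV and III. Complex III, at 3402, 2082 and 1825 CPM, lay above complex II, at 1615, 1703 and 1446 CPM, without overlap.

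**Figure D1:**
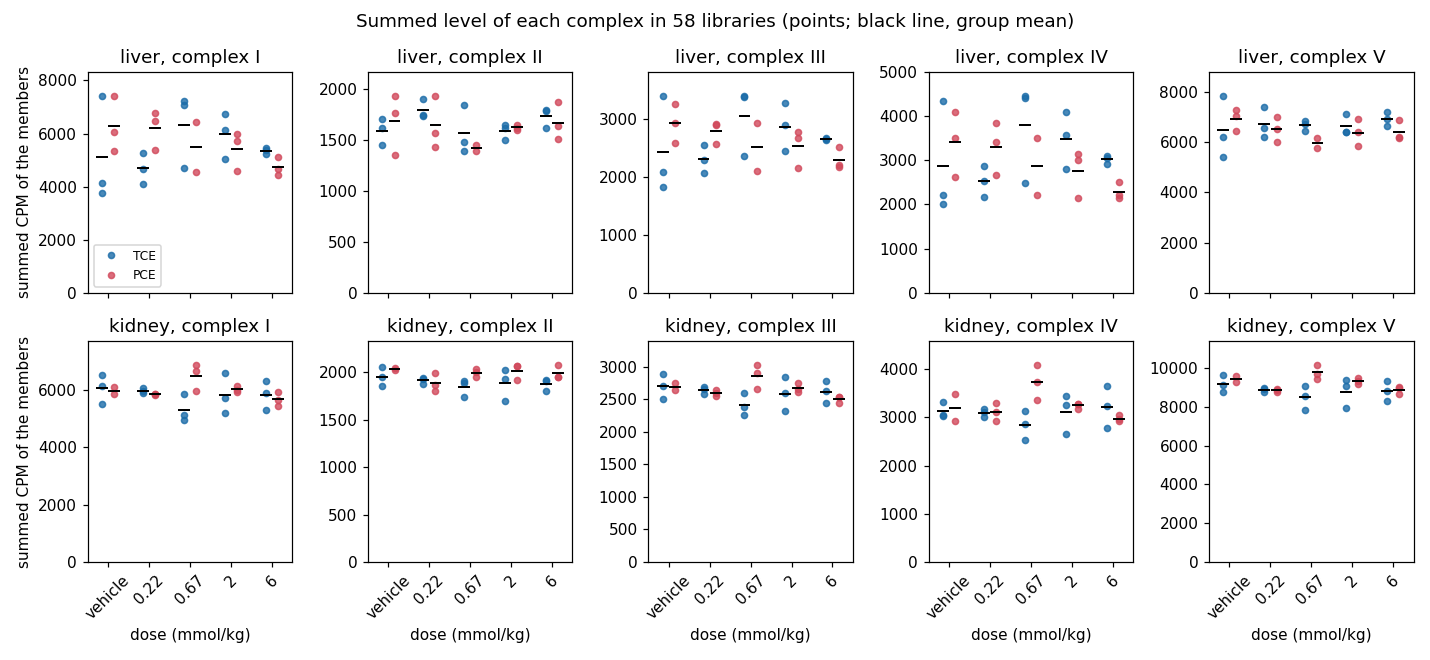
Summed CPM of the members of each complex (vertical axes) in every library against dose in mmol/kg, by tissue and chemical, with group means. Liver vehicle libraries scatter widely for complexes I and IV, kidney libraries lie close together, and complex V has the largest sum in both tissues.

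Per length, the highest level in kidney was that of Atp5b, the catalytic beta subunit of ATP synthase, at 2061 ± 72.0 RPKM (SD, n = 5 vehicle libraries), against 1050 ± 193 RPKM in liver (n = 6). Ndufa4, a small subunit first assigned to complex I and now placed in complex IV, stood at 1139 ± 73.7 RPKM in kidney and 1024 ± 309 RPKM in liver. Cox6a1, the widely expressed form of a regulatory complex IV subunit, stood at 1016 ± 128 RPKM in kidney and 1082 ± 306 RPKM in liver, where it ranked first. In liver Cox6a1, Atp5b and Ndufa4 did not differ beyond their spread, while in kidney Atp5b stood above the others. Atp5a1, the alpha subunit of ATP synthase, stood at 924 ± 32.0 RPKM in kidney and 642 ± 109 RPKM in liver. Median levels over the members of a complex were 185 RPKM in kidney for complex I, 286 for II, 357 for III, 332 for IV and 445 for V. The liver medians were 175, 234, 351, 331 and 426 RPKM in the same order.

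Among core subunits, Ndufv1, the NADH-binding subunit of complex I, stood at 273 ± 14.1 RPKM in kidney and 201 ± 25.7 RPKM in liver. Uqcrc1, a core protein of complex III, stood at 360 ± 16.4 and 310 ± 44.1 RPKM, and Cox5a of complex IV at 422 ± 25.5 and 416 ± 108 RPKM. In complex II, Sdha, the flavoprotein that oxidises succinate, stood at 295 ± 13.1 RPKM in kidney and 237 ± 70.8 RPKM in liver. Sdhb, the iron-sulfur subunit, stood at 390 ± 16.8 and 345 ± 80.7 RPKM, and the membrane anchors Sdhc and Sdhd at 108 ± 7.87 and 277 ± 12.3 RPKM in kidney and at 85.3 ± 10.9 and 231 ± 41.9 RPKM in liver. Atp5d, the delta subunit of the ATP synthase stalk, stood at 445 ± 47.3 RPKM in kidney and 484 ± 123 RPKM in liver. For Uqcrc1, Cox5a, the 4 Sdh genes and Atp5d the vehicle libraries of both tissues overlapped, and for Ndufv1 and Atp5b they did not.

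The value of a member with 2 or more transcripts in these tables is not the level of its gene. Such members number 11, and their median was 4.07 RPKM in kidney, against 273 RPKM for the 71 members of 1 transcript. Reads that fit more than 1 feature went to an ambiguous class, 19.7% to 22.6% of a library, and were counted to no transcript. Ndufs1, a core subunit of complex I with 4 transcripts, kept 44.1 counts per kidney library on average, Ndufv2 10.1, Cox7a2l 29.0 and Atp5c1, the gamma subunit of ATP synthase, 29.3. Ndufs6 had 0 counts in its named row, and an unnamed row of the same gene held 133 counts per kidney library. Among the 3 genes for the c-ring of ATP synthase, which encode the same mature protein, Atp5g2, with 1 transcript, stood at 450 ± 33.3 RPKM in kidney and 490 ± 106 RPKM in liver. Atp5g3 and Atp5g1, with 2 transcripts each, stood at 39.6 ± 3.13 and 13.1 ± 1.47 RPKM in kidney.

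The first comparison was kidney against liver in vehicle mice, 5 libraries against 6, by edgeR's quasi-likelihood test in 1 fit of all 58 libraries. Of 79 members tested, 36 passed at an adjusted p under 0.05, 27 of them higher in kidney and 9 lower, which is 45.6% of members. Over all 15085 genes tested 72.8% were called, 37.1% higher and 35.7% lower. The median log2 difference was 0.15 over the members and -0.01 over all genes. On library totals alone, without TMM factors, the median of all genes moved to 1.06 and that of the members to 1.27. Then 77 members were called, all higher in kidney. The share of all genes called on that scale is not reported here, so nothing particular to the members is read from the 77. All 9 members called lower with TMM turned positive on library totals alone. Without the liver libraries of low length slope, described below, 44 members were called higher and 3 lower with TMM. In that fit 72.4% of all genes were called. The shares of reads given above rest on library totals, and the values of single members on the TMM scale.

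By complex, the called members were 11 higher and 4 lower in complex I, 2 higher in complex II, 4 higher and 2 lower in complex III, 5 higher and 1 lower in complex IV, and 5 higher and 2 lower in complex V. Ndufv3, an accessory subunit of complex I, stood at 51.8 ± 3.90 RPKM in kidney and 18.1 ± 5.58 RPKM in liver, a log2 difference of 1.54 ± 0.13 (SE, adjusted p = 1.86e-14). It is a member of 2 transcripts, so these values are not the level of its gene. Atp5b was higher in kidney by 0.98 ± 0.12 (adjusted p = 1.28e-09), Uqcrc2, another core protein of complex III, by 0.44 ± 0.07 (adjusted p = 1.39e-07) and Ndufv1 by 0.45 ± 0.08. In complex II, Sdhc (0.35 ± 0.08, adjusted p = 6.6e-05) and Sdhd (0.27 ± 0.12, adjusted p = 0.0437) were higher. The Sdhd call was lost in 7 of 11 fits with 1 library left out and in 5 of 12 other settings, and that of Sdhc in none. Sdha (0.33 ± 0.17) and Sdhb (0.19 ± 0.12) did not pass, and neither did Atp5d (-0.11 ± 0.15) or Cox5a (0.01 ± 0.12).

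Members called lower in kidney were led by Uqcrq, a small complex III subunit, at 132 ± 13.6 RPKM in kidney and 278 ± 100 RPKM in liver. Its log2 difference was -1.06 ± 0.20 (adjusted p = 1.12e-05) with TMM and 0.06 on library totals alone. Ndufa7 of complex I differed by -0.61 ± 0.14 (adjusted p = 9.91e-05) with TMM, and by 0.49 on library totals alone. Another 3 unnamed rows of the Ndufa7 gene held 225 counts per liver library and 185 per kidney library on average. These are not in its value, which is not the level of its gene. Cox7a2l, a factor in supercomplex assembly, differed by -0.93 ± 0.23 and Atp5g1 by -0.39 ± 0.13 with TMM, and by 0.13 and 0.71 on library totals alone, and both are members of 2 transcripts. The other 5 called lower with TMM were Ndufb2, Ndufb10, Ndufb11, Uqcr11 and Atp5e, named, like Atp5a1 above, after their values were seen.

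**Figure D2:**
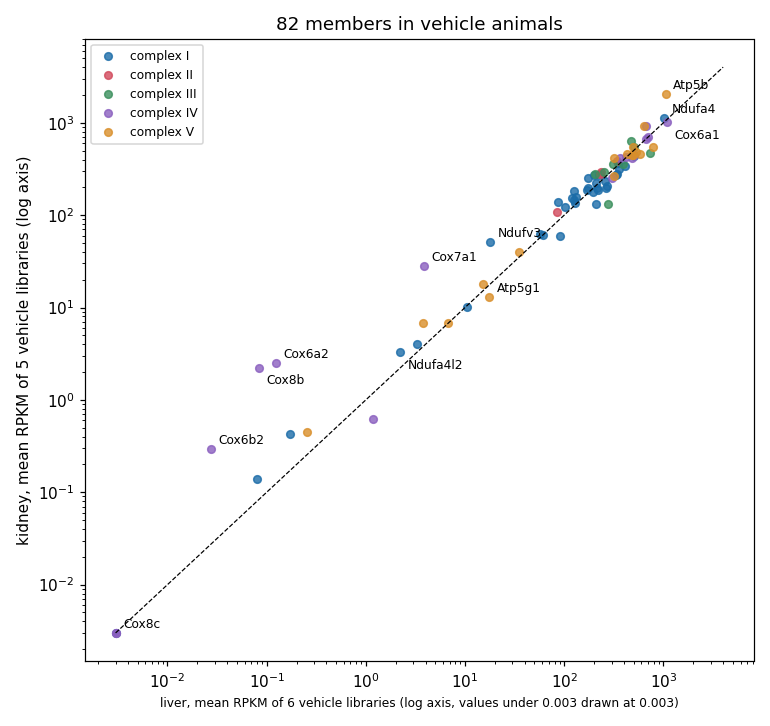
Mean RPKM of the members in 5 kidney vehicle libraries against 6 liver vehicle libraries, both on log axes and coloured by complex, with a line at equality. Most members lie along the line, and Cox7a1, Cox6a2, Cox8b and Cox6b2 lie well above it at low levels.

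The largest tissue differences belonged to alternative forms of complex IV subunits. Cox7a1, the heart and muscle form of subunit 7a, stood at 10.2, 11.9 and 10.0 CPM in the kidney TCE vehicle libraries and at 10.9 and 12.3 CPM in the PCE ones. In liver it stood at 1.41, 0.949 and 0.786 CPM, and at 1.61, 2.98 and 1.27 CPM. No liver library reached a kidney value, and the log2 difference was 2.97 ± 0.18 (adjusted p = 6.32e-19). Per length, Cox7a1 made up a median of 6.63% of Cox7a1 and Cox7a2 together in the 29 kidney libraries (5.52% to 8.67%) and 0.987% in the 29 liver libraries (0.643% to 1.66%). Cox7a2, the widely expressed form, stood at 412 ± 33.9 and 362 ± 116 RPKM in kidney and liver and did not pass the test (0.19 ± 0.14).

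Cox6a2, the heart and muscle form of subunit 6a, differed by 4.40 ± 0.46 (adjusted p = 1.33e-11). Its counts were 24 to 155 per kidney library and 0 to 14 per liver library, with 6 liver libraries at 0. On library totals alone, without TMM factors, 3 counts would equal 0.0238 to 0.0970 CPM over the 29 liver libraries. The TMM factors of liver libraries were 0.525 to 0.753, so this floor lies higher on the TMM scale of the other CPM values. Cox6a2 made up a median of 0.280% of Cox6a1 and Cox6a2 together per length in kidney and 0.00750% in liver. Cox6b2, the testis form of subunit 6b, differed by 3.57 ± 0.62 (adjusted p = 2.42e-06), from 33 counts over 5 kidney vehicle libraries and 6 over 6 liver vehicle libraries. It is a member of 5 transcripts, so its value is not the level of its gene. Ndufa4l2, a relative of Ndufa4 known to respond to low oxygen, stood at 3.32 ± 0.353 RPKM in kidney and 2.19 ± 0.798 RPKM in liver and was higher in kidney by 0.61 ± 0.23 (adjusted p = 0.0165). The widely expressed Cox6a1 (-0.07 ± 0.15), Cox6b1 (0.00 ± 0.17), Cox7b (-0.24 ± 0.16) and Ndufa4 (0.16 ± 0.13) did not pass, and Cox8a was higher by 0.47 ± 0.17 (adjusted p = 0.0143). Cox7b2 and Cox8c, forms described in testis, stood at 0 RPKM in the vehicle libraries of both tissues and were not tested.

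Cox8b, the heart, muscle and brown fat form of subunit 8, had the largest tissue difference of the tested members, 4.71 ± 1.16 (adjusted p = 0.000384). It stood at 0.424, 0.913 and 0.919 CPM in the kidney TCE vehicle libraries and at 0.397 and 1.37 CPM in the PCE ones. Liver vehicle libraries held 0.0646 CPM or less. Over the 29 kidney libraries Cox8b ran from 0.0557 to 13.4 CPM, while Cox7a1 ran from 9.71 to 15.3 CPM. Libraries of 1 group could lie far apart, as at 6 mmol/kg TCE (4.95, 8.50 and 0.320 CPM) and at 6 mmol/kg PCE (0.217, 0.214 and 13.4 CPM).

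The brown fat gene Ucp1 moved with Cox8b from library to library. In the same kidney libraries at 6 mmol/kg Ucp1 stood at 27.8, 72.8 and 0.669 CPM for TCE and at 0.244, 0.107 and 76.2 CPM for PCE. Across 29 kidney libraries Pearson's r of Cox8b with Ucp1 on the log2(CPM + 0.1) scale was 0.953 (Spearman's rho 0.948, and r = 0.942 without the 2 libraries farthest from the median). With Cidea, another brown fat gene, r was 0.979, with Adipoq of fat cells 0.788 and with Ckm of skeletal muscle 0.377. The same r with Ucp1 was 0.297 for Cox7a1, 0.133 for Cox6a2, -0.370 for Cox6b2 and -0.410 for Cox8a. The points share libraries, depth and scaling, so these are descriptions. The 8 brown fat markers other than Cox8b summed to 44.7 to 120 CPM in the kidney TCE vehicle libraries and to 32.7 to 335 CPM at 6 mmol/kg TCE, and their part in the Cox8b values was not tested. Ucp1 stood at 0.0344 CPM or less in liver and was at 0 in 24 of 29 libraries there.

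**Figure D3:**
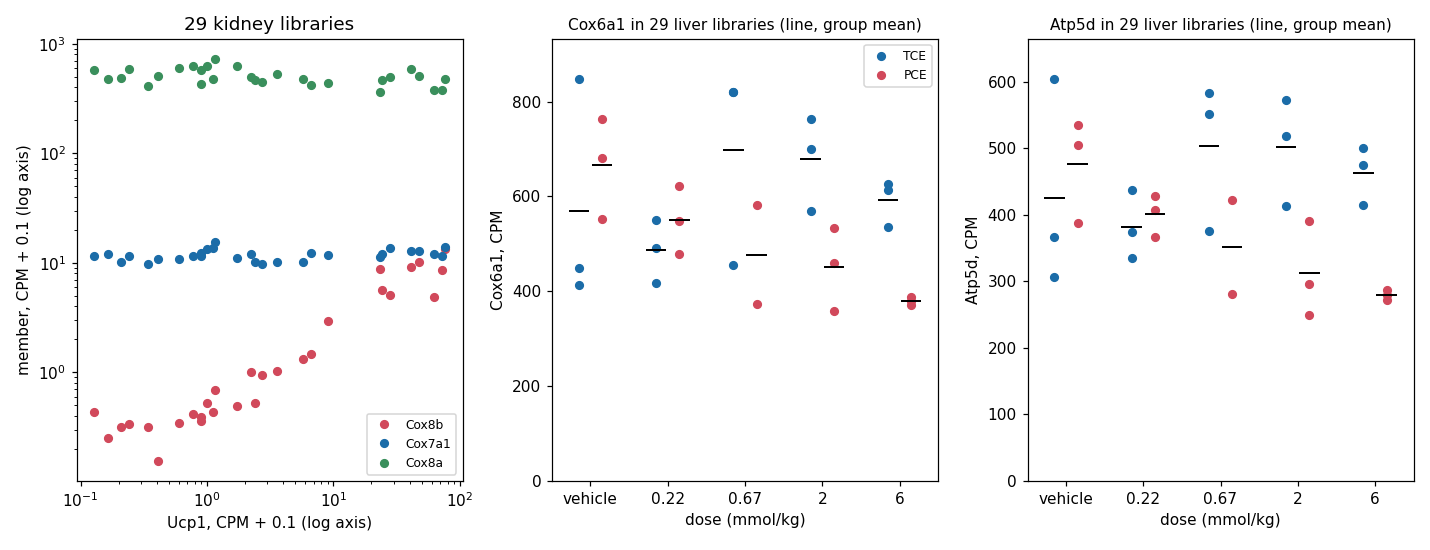
CPM of Cox8b, Cox7a1 and Cox8a against Ucp1 in the 29 kidney libraries on log axes, and CPM of Cox6a1 and Atp5d in the 29 liver libraries against dose, by chemical and with group means. Cox8b climbs with Ucp1 while Cox7a1 and Cox8a change little, and the 3 liver libraries at 6 mmol/kg PCE lie below the PCE vehicle libraries for both genes.

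Sequence upstream of the start was read for the 66 members found in RefSeq's promoter table (GRCm38.p6), with 1 start per gene and 250 bases before it. The last 160 of these are shown for 3 members with motifs of factors long tied to respiratory genes and for 3 complex IV members described here for their tissue forms. Capitals mark the core of NRF1 sites, as seen near the middle of the Sdhd stretch, and CCGGAAG, a core of ETS sites such as those of GABP, on either strand.
Cox6a1: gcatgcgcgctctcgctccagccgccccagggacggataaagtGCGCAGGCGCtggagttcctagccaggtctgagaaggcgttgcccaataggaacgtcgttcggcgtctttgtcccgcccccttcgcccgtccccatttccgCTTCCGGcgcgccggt
Ndufb7: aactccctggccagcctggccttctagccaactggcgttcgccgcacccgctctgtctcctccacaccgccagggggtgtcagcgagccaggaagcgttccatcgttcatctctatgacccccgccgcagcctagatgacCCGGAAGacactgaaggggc
Sdhd: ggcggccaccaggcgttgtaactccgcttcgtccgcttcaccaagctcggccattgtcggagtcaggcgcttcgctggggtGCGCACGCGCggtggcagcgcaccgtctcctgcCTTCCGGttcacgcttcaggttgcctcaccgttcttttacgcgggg
Cox8a: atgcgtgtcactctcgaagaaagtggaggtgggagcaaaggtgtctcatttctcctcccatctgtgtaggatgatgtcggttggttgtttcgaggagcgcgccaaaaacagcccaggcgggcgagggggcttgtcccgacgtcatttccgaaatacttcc
Cox7a1: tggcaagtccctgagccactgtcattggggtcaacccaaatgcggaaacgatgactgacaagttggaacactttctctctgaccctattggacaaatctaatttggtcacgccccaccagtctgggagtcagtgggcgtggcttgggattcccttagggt
Cox8b: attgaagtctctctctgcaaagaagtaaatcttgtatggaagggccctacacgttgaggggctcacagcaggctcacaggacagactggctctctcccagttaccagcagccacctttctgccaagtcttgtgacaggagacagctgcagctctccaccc

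These stretches lie just before the gene at chr5:115348959-115349118 (minus strand) for Cox6a1, chr8:83566598-83566757 (plus) for Ndufb7, chr9:50603850-50604009 (minus) for Sdhd, chr19:7217617-7217776 (minus) for Cox8a, chr7:30184011-30184170 (plus) for Cox7a1 and chr7:140900447-140900606 (minus) for Cox8b. In the 250 bases the NRF1 core was found for 12 of 66 members (18.2%) and for 3.86% of 27025 promoters of all genes. CCGGAAG was found for 11 members (16.7%) and for 7.05% of all. Sdhd, Atp5h and Cox6a1 held both motifs. TCAAGGTCA, a site of estrogen-related receptors, was found for 1 member, Atp5g3, and for 0.366% of all promoters, and AAGATGGC, a core of YY1 sites, for 0 members and 1.59% of all. TATAAA was found for 6 members (9.09%) and 13.0% of all. The median GC content of the 250 bases was 55.6% for members and 52.0% for all promoters. A match of letters describes the sequence and is not evidence of binding.

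Across the libraries of a tissue many members moved together. Among 75 members tested in liver, the median pairwise r over 29 libraries was 0.709, with 0.763 within a complex and 0.680 between complexes, and 81.3% of 2775 pairs were positive. In kidney the median over 79 members was 0.560, with 0.610 within and 0.540 between complexes. The pairs share libraries, depth and scaling. Not all members followed. In liver the median r with the other members was -0.756 for Ndufs1, -0.675 for Sdha and -0.642 for Atp5c1, and in kidney it was -0.404 for Cox8b. The mean log2 deviation of the members from the tissue mean ran from -0.48 to 0.36 across liver libraries and from -0.19 to 0.22 across kidney libraries.

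This shared movement went with a property of the whole library. For each library the log2 CPM of all tested genes, as a deviation from the tissue mean, was regressed on transcript length and GC content, and the length slope gives the change per doubling of length. Pearson's r of the members' mean deviation with the length slope was -0.931 in liver (rho -0.917, and -0.920 without the 2 libraries farthest from the median slope) and -0.864 in kidney (rho -0.800, and -0.811). With the GC slope r was 0.436 in liver and 0.480 in kidney. Tested members had a median length of 838 bases in liver, against 2722 for all tested genes, and a median GC content of 51.4% against 50.3%. Libraries in which short transcripts stood high were those in which members stood high. Members enter these slopes too, as 75 of 13126 liver genes with a length.

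**Figure D4:**
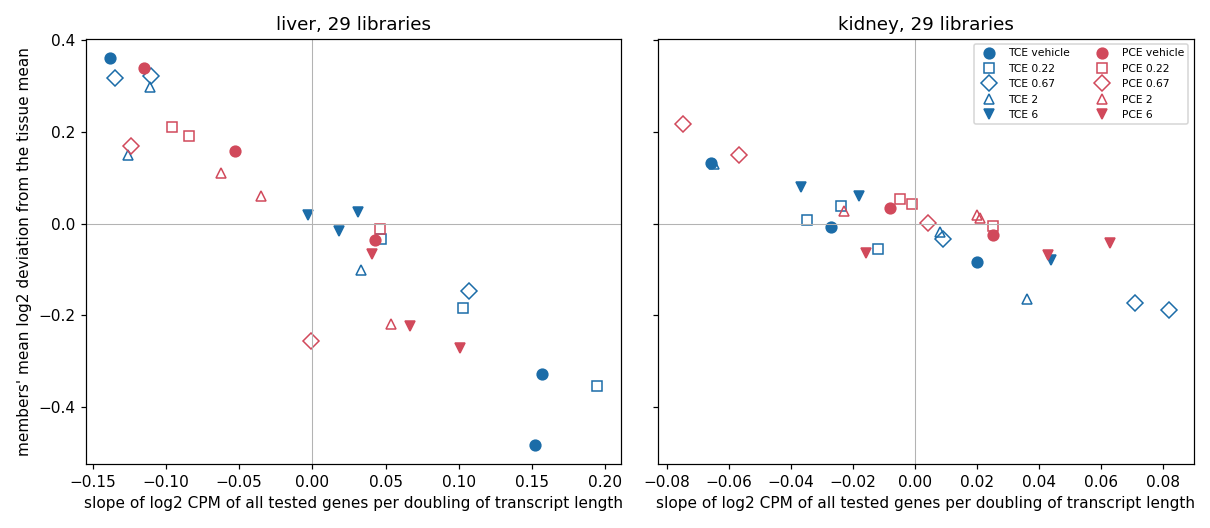
Mean log2 deviation of the tested members from the tissue mean (vertical) against each library's slope of log2 CPM on log2 transcript length (horizontal), for 29 liver and 29 kidney libraries. Points descend from left to right in both tissues, and the 3 liver TCE vehicle libraries hold both the highest and the lowest deviation of the liver.

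Vehicle libraries of liver show the size of this movement without solvent. The TCE vehicle libraries had mean member deviations of 0.36, -0.33 and -0.48 at length slopes of -0.14, 0.16 and 0.15. The PCE vehicle libraries had deviations of 0.16, 0.34 and -0.04 at slopes of -0.05, -0.12 and 0.04. The members' median difference of the PCE from the TCE vehicle group was 0.28 on the log2 scale, with 66 of 75 members positive. With 1 library left out it ran from 0.10, without TCE vehicle library 3, to 0.62, without TCE vehicle library 1. By edgeR's test none passed, where 0.0% of all genes were called. At an unadjusted p under 0.05 there were 7 members, beside 1335 of 13280 genes. In kidney the same median was -0.03, with 0 of 79 members and 0.0% of all genes called. There 0 members had an unadjusted p under 0.05, beside 1157 of 14332 genes.

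At 6 mmol/kg PCE in liver, 2 of 75 members fell and none rose, where 5.76% of 13280 genes were called and 3.49% were called lower. Atp5d, at chr10:80138698-80145828, stood at 505, 535 and 387 CPM in the PCE vehicle libraries and at 287, 279 and 272 CPM at 6 mmol/kg. Every dose library lay below every vehicle library, and the log2 difference was -0.75 ± 0.21 (adjusted p = 0.039). Cox6a1, at chr5:115345652-115348958, stood at 680, 763 and 553 CPM in vehicle and at 378, 372 and 387 CPM at 6 mmol/kg. These groups did not overlap either, and the log2 difference was -0.79 ± 0.23 (adjusted p = 0.0446).

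Most other members lay lower without passing. The median over the 75 was -0.36 and 64 were negative, against a median of -0.01 for all genes. In 36 members all 3 dose libraries lay below all 3 vehicle libraries, as they did for 16.2% of all genes tested, and in 1 member all lay above, as they did for 14.0% of all genes. Cox8a stood at 438, 413 and 283 CPM in vehicle and 211, 205 and 230 CPM at 6 mmol/kg (-0.79 ± 0.25, adjusted p = 0.0585). Uqcrc1 differed by -0.34 ± 0.12 (adjusted p = 0.0791), Atp5g1 by -0.56 ± 0.19 and Cox7a1 by -0.95 ± 0.32 (adjusted p = 0.0717). In complex II, Sdha (0.17 ± 0.32) and Sdhd (0.18 ± 0.22) were positive and Sdhb (-0.36 ± 0.19) and Sdhc (-0.16 ± 0.11) negative, none of them called.

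By complex, the medians at 6 mmol/kg PCE in liver were -0.41 for complex I (34 of 35 negative), 0.00 for complex II (2 of 4), -0.26 for complex III (7 of 8), -0.46 for complex IV (10 of 11) and -0.27 for complex V (11 of 17). Of the core subunits, Ndufv1 stood at -0.23 ± 0.13, Cox5a at -0.17 ± 0.18 and Atp5b at 0.12 ± 0.22, none of them called. Cox6b1 (-0.60 ± 0.28), Cox7a2 (-0.35 ± 0.23), Cox7b (-0.43 ± 0.26), Ndufa4 (-0.11 ± 0.21), Ndufa4l2 (-0.87 ± 0.31), Atp5g2 (-0.18 ± 0.14) and Atp5g3 (-0.35 ± 0.23) were not called either, nor was Cox7a2l (0.47 ± 0.34), which kept few counts. Across the 75 members the log2 difference had r = -0.505 with GC content and r = 0.508 with length, as a description of genes measured in the same libraries. The 37 members of GC content above their median had a median difference of -0.53 and the other 38 of -0.23.

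Both calls at 6 mmol/kg depended on library and model. Length slopes averaged -0.04 ± 0.08 (SD, n = 3) in the PCE vehicle libraries and 0.07 ± 0.03 at 6 mmol/kg, and GC slopes 0.08 ± 0.11 and -0.25 ± 0.08 per 10 points of GC. With both slopes as covariates 0 members were called, and the median was -0.08, against -0.02 for all genes. Because GC slopes differed between the groups, that fit cannot fully tell slope and dose apart. Leaving out any 1 of the 3 dose libraries, or PCE vehicle library 1 or 2, gave 0 calls, and leaving out PCE vehicle library 3 gave 4. DESeq2 called 11 members. The shares of all genes called in these fits are not reported here, so nothing particular to the members is read from the counts. Kupffer and macrophage markers summed to 151 to 531 CPM in the vehicle libraries and 284 to 518 CPM at 6 mmol/kg, and hepatocyte markers to 157500 to 179300 and 169800 to 211700 CPM, and their part in the result was not tested.

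Over all 5 PCE groups of the liver, 20 of 75 members fell with dose and none rose, which is 26.7% of members, where 11.3% of 13134 genes were called and 6.6% were called lower. The test was of a slope per dose rank from vehicle to 6 mmol/kg, and it shares the vehicle and 6 mmol/kg libraries with the comparison above. Calls numbered 11 of 35 in complex I, 0 of 4 in complex II, 4 of 8 in complex III, 3 of 11 in complex IV and 2 of 17 in complex V. In complex I the smallest adjusted p was that of Ndufs7, a core iron-sulfur subunit. It stood at 197, 294 and 182 CPM in vehicle, at 174, 225 and 238 CPM at 0.22 mmol/kg, at 141 and 213 CPM at 0.67, at 184, 132 and 159 CPM at 2, and at 146, 134 and 136 CPM at 6 mmol/kg. The values at 6 mmol/kg lay below all vehicle values and the doses between overlapped them, with a slope of -0.18 ± 0.04 per rank (adjusted p = 0.0129).

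In complex III Uqcrq stood at 454, 551 and 380 CPM in vehicle, 308, 401 and 369 CPM at 0.22 mmol/kg, 250 and 475 CPM at 0.67, 351, 235 and 281 CPM at 2, and 245, 262 and 242 CPM at 6 mmol/kg. The values at 2 and 6 mmol/kg lay below all vehicle values, and the slope was -0.20 ± 0.04 (adjusted p = 0.0114). In complex IV Cox6a1 stood at 478, 549 and 623 CPM at 0.22 mmol/kg, 372 and 582 CPM at 0.67 and 534, 358 and 460 CPM at 2, with a slope of -0.19 ± 0.04 (adjusted p = 0.00792). In complex V Atp5d stood at 367, 428 and 407 CPM, 281 and 423 CPM, and 391, 249 and 295 CPM at the same doses, with a slope of -0.18 ± 0.03 (adjusted p = 0.00748). At 2 mmol/kg all 3 Cox6a1 values and 2 of the 3 Atp5d values lay below their vehicle libraries. Cox8a (-0.19 ± 0.04), Atp5g1 (-0.15 ± 0.04) and Uqcrc1 (-0.08 ± 0.02) were also called.

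The 20 members called lower had a median length of 624 bases and a median GC content of 55.8%, against 934 bases and 50.3% for the 55 other tested members. In the TCE trend, which shares no library with the PCE trend, 19 of the 20 had a positive slope (median 0.051). So did 49 of the 55 others (median 0.057), so this sign is not particular to the 20. With length and GC slopes as covariates 0 members were called in the PCE trend, and the median slope moved from -0.09 to -0.06, against -0.02 for all genes. Leaving out 1 library gave 4 calls without 6 mmol/kg library 1, 7 without 6 mmol/kg library 3, 5 without vehicle library 2 and 37 without vehicle library 3. Shares of all genes called in these fits and in the fit with slopes are not reported here. The swing in calls is therefore not read as particular to the members.

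**Figure D5:**
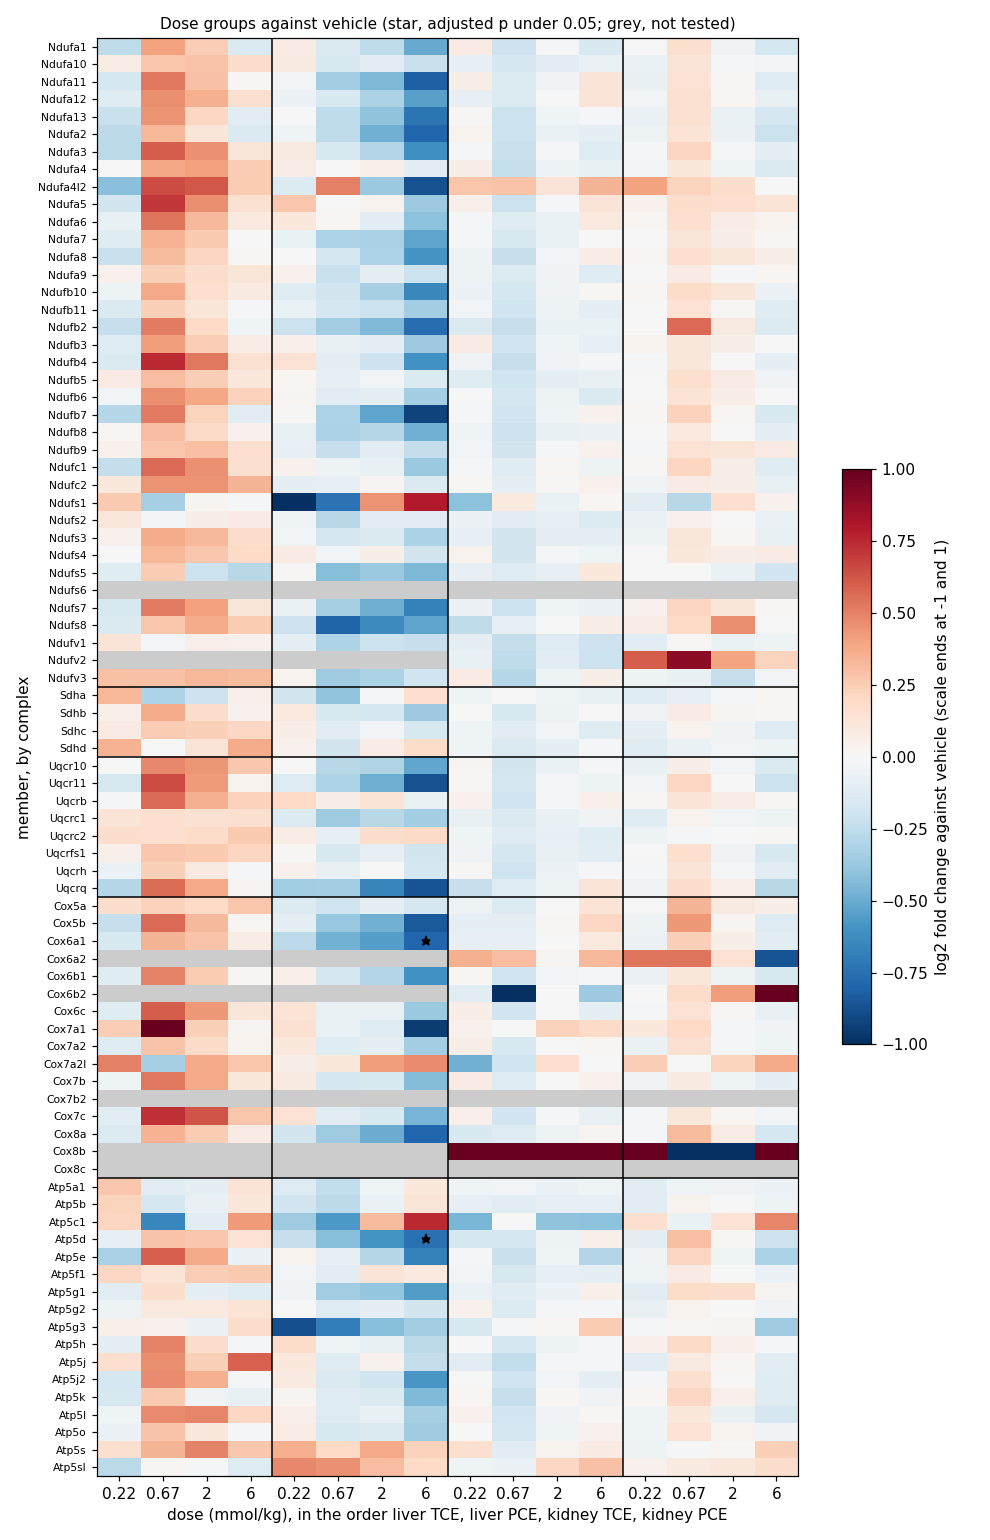
Log2 fold change of each member (rows, by complex) at each dose against the vehicle group of its chemical (columns), by tissue and chemical, with marks at an adjusted p under 0.05. Most members of a column share a colour, lower at 6 mmol/kg PCE and higher at 0.67 mmol/kg TCE in liver, and the 2 marked members are Cox6a1 and Atp5d in liver at 6 mmol/kg PCE.

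With TCE at 6 mmol/kg in liver no member passed edgeR's test, where 1.29% of all genes were called. An unadjusted p under 0.05 was reached by 2 of 75 members and by 1553 of 13280 genes. The median was 0.12, with 59 members positive, against -0.04 for all genes. It was 0.45 without TCE vehicle library 1, 0.01 without library 2 and -0.06 without library 3, and -0.01 with both vehicle groups pooled, so its sign rests on the vehicle libraries. Cox6a1 stood at 848, 449 and 413 CPM in the TCE vehicle libraries and at 535, 613 and 627 CPM at 6 mmol/kg. Atp5d stood at 604, 366 and 306 CPM and at 414, 500 and 475 CPM in the same order. For both genes vehicle library 1 lay above all dose libraries and the other 2 below them. The smallest p was that of Atp5j, a coupling factor of ATP synthase and a member of 3 transcripts, at 0.59 ± 0.21 (adjusted p = 0.218), named after its value was seen. Across the TCE doses no member passed, where 0.87% of all genes were called. An unadjusted p under 0.05 was reached by 5 members and by 1763 of 12533 genes. Of 75 slopes 68 were positive, with a median of 0.06 per rank (0.02 to 0.10 with 1 library left out).

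The spread of the vehicle libraries limits what can be said of TCE in liver. At 6 mmol/kg TCE the log2 difference was 0.08 ± 0.23 for Cox6a1, 0.14 ± 0.21 for Atp5d and 0.04 ± 0.13 for Ndufv1. A p that misses the threshold does not show that TCE left these genes unchanged. The response to PCE minus that to TCE at 6 mmol/kg had a median of -0.49 over the members in liver, with 69 of 75 negative, and no member passed. That median ran from -0.83 to -0.31 with 1 library left out and was -0.17 with the length and GC slopes. The difference was -0.89 ± 0.29 (adjusted p = 0.427) for Atp5d and -0.87 ± 0.32 (adjusted p = 0.517) for Cox6a1. No gene passed this test (0.0%), and 1176 genes, 15 of them members, had an unadjusted p under 0.05.

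Lower doses in liver gave no called member in any of 6 comparisons, which together called 30 genes or 0.0377% of tests. Medians over the members were -0.06, 0.34 and 0.25 at 0.22, 0.67 and 2 mmol/kg TCE and 0.01, -0.17 and -0.14 for PCE. At 0.67 mmol/kg TCE 67 of 75 members were positive and 13 had an unadjusted p under 0.05, as did 1050 of 13280 genes. That number of members ran from 1 to 62 with 1 library of the groups compared left out. It was 62 without TCE vehicle library 1, where 21.0% of all genes reached the cut. It was 48 without library 2 of the dose group, where 27.7% of all genes did. The libraries of that group had length slopes of -0.11, 0.11 and -0.14.

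In kidney no member passed edgeR's test in any comparison with vehicle. At 6 mmol/kg TCE the median over 79 members was -0.02, and 0.174% of all genes were called. An unadjusted p under 0.05 was reached by 4 members and by 1446 of 14332 genes. With PCE at that dose the median was -0.06, and 3.79% of all genes were called. The unadjusted cut was reached by 1 member and by 2332 of 14332 genes. The kidney trends called 0 of 78 members for TCE, where 0.0% of all genes were called, and 0 of 79 for PCE, where 3.48% were. Unadjusted, 2 members and 1249 of 13809 genes lay under 0.05 for TCE, and 3 members and 2484 of 13926 genes for PCE. The 6 comparisons at lower doses called 0 members and 1 gene (0.00116% of tests), and members at an unadjusted p under 0.05 numbered 20 at 0.67 mmol/kg TCE, 4 at 0.67 mmol/kg PCE, 1 at 2 mmol/kg PCE and 0 in the other 3. At that cut 1766 of 14332 genes stood at 0.67 mmol/kg TCE, 1176 at 0.67 mmol/kg PCE and 877 at 2 mmol/kg PCE. At 0.67 mmol/kg TCE the number of members ran from 2 to 44 with 1 library of the groups compared left out. Without dose library 3, which held adrenal cortex markers at 3481 CPM, 2 members and 5.66% of genes reached the cut. Without TCE vehicle library 2 there were also 2 members, and 8.36% of genes. Without dose library 1 there were 44 members and 19.0% of genes, and 41 and 16.8% without TCE vehicle library 3.

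Standard errors of the common members were small in kidney. Atp5b stood at 4130 and 3927 CPM in the PCE vehicle libraries and at 3895, 3971 and 3705 CPM at 6 mmol/kg, a log2 difference of -0.05 ± 0.08. Sdha stood at 877 and 905 CPM and at 903, 898 and 888 CPM (0.02 ± 0.07). Vehicle and dose libraries overlapped for Sdha and for Atp5b. Ndufv1 differed by -0.05 ± 0.09, Uqcrc1 by -0.05 ± 0.08 and Cox5a by 0.07 ± 0.12 at 6 mmol/kg PCE. For TCE the values were -0.08 ± 0.07 for Atp5b, -0.07 ± 0.07 for Sdha, -0.21 ± 0.08 for Ndufv1 (adjusted p = 0.381), -0.04 ± 0.07 for Uqcrc1 and 0.14 ± 0.11 for Cox5a. Atp5d and Cox6a1, which fell in liver, differed in kidney by -0.21 ± 0.16 and -0.11 ± 0.15 with PCE and by 0.05 ± 0.15 and 0.10 ± 0.13 with TCE.

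Errors were wider for the forms of low level. Cox6b2 stood at 0.159 and 0.154 CPM in the PCE vehicle libraries and at 0.597, 0.257 and 0.233 CPM at 6 mmol/kg, a log2 difference of 1.19 ± 0.49 (adjusted p = 0.212), from few counts. Cox6a2 stood at 1.59 and 1.96 CPM and at 0.651, 1.20 and 1.02 CPM (-0.87 ± 0.47, adjusted p = 0.372). The dose libraries lay above both vehicle libraries for Cox6b2 and below both for Cox6a2. Of the 79 tested members 2 lay wholly above and 22 wholly below in this way. Of 14332 genes tested, 2207 lay wholly above and 2391 wholly below, with only 2 vehicle libraries to compare. Proximal tubule markers summed to 48970 to 49970 CPM in the PCE vehicle libraries and 36010 to 36620 CPM at 6 mmol/kg, with Slc7a13 (-1.21 ± 0.20) and Kap (-0.52 ± 0.12) called lower among the 10, and their part in the members' values was not tested.

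At 0.67 mmol/kg the members in kidney lay on opposite sides of zero for the chemicals, without a call. With TCE 72 of 79 were negative (median -0.17), and with PCE 68 of 79 were positive (median 0.13). The kidney libraries at 0.67 mmol/kg TCE had mean member deviations of -0.03, -0.17 and -0.19. In library 3, the lowest of them, 7 adrenal cortex markers summed to 3481 CPM, against 2.51 CPM in each of the other 2, with Star at 2.45, 2.48 and 874 CPM and Cyp11b1 at 0, 0 and 386 CPM in libraries 1, 2 and 3. Brown fat markers of the 3 libraries summed to 23.3 to 325 CPM, against 44.7 to 120 CPM in vehicle. Without library 3, 72 of 79 members were negative and the median was -0.13. Over all 6 libraries left out in turn it ran from -0.24 to -0.11. For PCE it ran from 0.08 to 0.19 in the same way. Mean length slopes were 0.05 ± 0.04 (SD, n = 3) for the TCE group and -0.04 ± 0.04 (n = 3) for the PCE group at this dose, and -0.02 ± 0.04 (n = 3) and 0.01 ± 0.02 (n = 2) in their vehicle groups. The difference between the chemicals at this dose was not tested.

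The response in kidney minus that in liver called no member for either chemical at 6 mmol/kg, where 0.325% of all genes passed for TCE, as did 0.703% with PCE. By edgeR's test 8 members had an unadjusted p under 0.05 for PCE and 4 for TCE, beside 2038 and 1336 of 15085 genes. For PCE the median over 79 members was 0.32, with 65 positive, and for TCE it was -0.11. The PCE median ran from 0.16 to 0.44 with 1 library left out and was 0.06 with the length and GC slopes. The TCE median was -0.46, 0.02 and 0.07 without liver TCE vehicle library 1, 2 or 3, so it has no stable sign. For PCE the difference was 0.55 ± 0.29 (adjusted p = 0.409) for Atp5d and 0.69 ± 0.31 (adjusted p = 0.308) for Cox6a1, so their fall in liver is not shown to differ from kidney. In kidney the PCE response minus the TCE response called no member, where 0.0209% of all genes were called. Here 2 members and 1090 of 14332 genes had an unadjusted p under 0.05.

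Other genes of the pathway were taken from lists. At 6 mmol/kg PCE 5.76% of all genes were called in liver (3.49% lower) and 3.79% in kidney, and nothing particular to a list is read from its count. At 6 mmol/kg PCE in liver, 1 of 8 tested genes in a list of further respiratory chain genes fell, 1110001J03Rik, now named Fmc1 and an assembly factor of ATP synthase (-0.88 ± 0.23, adjusted p = 0.0272). Of 12 biogenesis regulators 2 fell and 1 rose. Esrra, the estrogen-related receptor that drives many respiratory genes, fell (-0.62 ± 0.11, adjusted p = 0.00376), as did Polrmt, the mitochondrial RNA polymerase (-0.40 ± 0.10), and Tfb2m, a mitochondrial transcription factor, rose (0.51 ± 0.15). Of 74 mitochondrial ribosomal genes 2 fell, Mrpl38 (-0.67 ± 0.17) and Mrpl4 (-0.76 ± 0.19), with a list median of -0.30. Of 40 assembly factors none passed (median -0.18), and of 16 citric acid cycle enzymes none (median 0.17). Of 16 carriers and import genes Slc25a20, the carnitine-acylcarnitine carrier, rose (0.68 ± 0.16) and Tomm40, the import pore, fell (-1.54 ± 0.45).

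At 6 mmol/kg PCE in kidney, of 40 assembly factors 3 fell and 1 rose, where 3.79% of all genes were called. Acad9, needed for complex I assembly, fell (-0.46 ± 0.09, adjusted p = 0.00627), as did Cox15 of haem a synthesis (-0.34 ± 0.08, adjusted p = 0.0103), and Lrpprc, which stabilises mitochondrial mRNA, rose (0.37 ± 0.09, adjusted p = 0.0179). Of 74 mitochondrial ribosomal genes 3 fell, Mrpl16 (-0.39 ± 0.08), Mrpl44 (-0.32 ± 0.08) and Mrpl22 (-0.28 ± 0.08), and of 16 carriers and import genes Slc25a20 (0.78 ± 0.14) and Tomm20 (0.32 ± 0.09) rose. With TCE at 6 mmol/kg Slc25a20 rose in liver (0.71 ± 0.16, adjusted p = 0.0238), and in kidney no gene of these pathway lists passed.

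Cox4i1, the main form of complex IV subunit 4, stood at 15.9 to 49.5 CPM in liver and 23.7 to 55.5 CPM in kidney, and differed by -0.78 ± 0.26 (adjusted p = 0.0704) at 6 mmol/kg PCE in liver. Cyc1, the cytochrome c1 of complex III, differed by -0.31 ± 0.12 (adjusted p = 0.127) and Cycs, cytochrome c, by -0.16 ± 0.18 there. In vehicle mice Cycs was higher in kidney than in liver by 1.33 ± 0.12 (adjusted p = 3.48e-13), Cyc1 by 0.28 ± 0.08, Cox4i1 by 0.44 ± 0.17 and Esrra by 1.32 ± 0.08 on the TMM scale. Of 16 citric acid cycle enzymes 13 were higher and 1 lower in kidney on that scale, where 72.8% of all genes were called and 37.1% were higher. Ppargc1a, the coactivator of mitochondrial biogenesis, is listed at 0 in all libraries of both tissues. Reads that fit more than 1 feature were counted to no transcript, so this 0 does not show that the gene is silent. Whether such reads lowered the values of Ppargc1a or Cox4i1 was not tested.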

How the data were processed

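RNA of 58 liver and kidney libraries was measured by sequencing. Per the labels' protocols, the TruSeq Total RNA kit and a HiSeq-2000 were used. Per the submitters' processing notes, CASAVA 1.8.2, TopHat2 2.0.10 and HTSeq were used with mm10. The deposited values are whole-number counts per RefSeq transcript. Columns of the 0.22 and 0.67 mmol/kg groups, deposited with a decimal dose line above the counts, are entered under expected counts and were rounded, which changed none. Reads in ambiguous or no-feature lines (19.7% to 22.6% and 14.3% to 27.5% of a library) were left out of library sizes.

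Counts were summed per deposited symbol and fitted with edgeR 4.0.16 in R 4.3.3 (TMM, filterByExpr, robust quasi-likelihood fit, Benjamini-Hochberg over all genes tested), 1 fit per tissue, 1 of both tissues and 1 per trend. A call is an adjusted p under 0.05. Fold changes are given as log2 ± SE. Fits held 13280 liver genes, 14332 kidney genes and 15085 genes of both. Scripts were tested on simulated data. Intervals are not given for low counts, and a floor of 3 counts covers counting error only. Lengths and GC content came from GENCODE M21 transcripts with the deposited Ensembl IDs.

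Named genes were the called member of smallest adjusted p per complex and direction in the 6 mmol/kg, trend and tissue comparisons, the members with tissue forms, the Sdh genes, 1 core subunit per complex and Atp5d, plus called genes of pathway lists (up to 3 a list). Members, lists and rules were chosen with earlier results of these data known. Alternatives were DESeq2 1.42.0 or its size factors, no count filter, no robust fit, the most abundant transcript, the replicate block, length and GC slopes, pooled vehicles, fewer groups in a fit, log2 dose and each library left out. Chosen after seeing the data were library totals alone, rows without a symbol added by RefSeq gene, and leaving out liver libraries with a length slope under -0.1.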

Additional observations from a re-analysis of the deposited data

How the results depend on the processing

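For liver at 6 mmol/kg PCE, where 2 members were called, DESeq2 called 11, both vehicle groups pooled 4 and only the chemical's libraries 5. Library totals alone called 7 and no count filter 1. Leaving out liver libraries of low length slope called 4 of 77 members, where 3.51% of all genes were called. Length and GC slopes, alone or with the replicate block, called 0 for liver PCE at 6 mmol/kg, and so did the replicate block alone. Leaving out 1 library gave 0 to 4, and the median stayed negative under each alternative run. For the liver PCE trend, with 20 members called, the slopes gave 0 without and with the replicate block. Leaving out libraries of low length slope gave 4 there, where 3.54% of all genes were called, and leaving out 1 library gave 4 to 37. For the other settings of these PCE results the shares of all genes are not reported here. Nothing particular to the members is read from those counts. Leaving out the libraries of low length slope gave 3 members for liver TCE at 6 mmol/kg, all higher, where 2.24% of all genes were called, and 37 for the liver TCE trend, all higher, where 15.3% were. It gave 8 for the PCE minus TCE response in liver, all lower, where 1.0% of all genes were called, and 8 for the TCE response in kidney minus liver, all lower, where 2.24% were. These 4 counts stand in place of 0. The last gave 0 to 1 with 1 library left out, the 1 without liver TCE vehicle library 1. The length slope that chose the libraries went with the members' own mean deviation in liver (r = -0.931). It removed TCE vehicle library 1, where that deviation was 0.36, and kept libraries 2 and 3, at -0.33 and -0.48. All 4 counts use the TCE vehicle group, so no direction is read from them. For the kidney TCE trend DESeq2 and library totals alone each called 1, and for kidney PCE at 6 mmol/kg the slopes with the replicate block and only the chemical's libraries each called 1, in place of 0. For kidney against liver, library totals alone called 77 in place of 36, and leaving out 1 library 26 to 43. Leaving out the liver libraries of low length slope, TCE vehicle library 1 among them, called 47 of 79 members. Of these 44 were higher and 3 lower, where 72.4% of all genes were called. On library totals alone the values turned to 0.599 for Atp5e, 0.707 for Atp5g1, 0.127 for Cox7a2l, 0.491 for Ndufa7, 0.806 for Ndufb10, 0.815 for Ndufb11, 0.475 for Ndufb2, 0.528 for Uqcr11 and 0.058 for Uqcrq. The cause of these changes was not tested, beyond the fewer libraries of a fit.

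Replicate numbers showed no pairing between the groups of a tissue. Deviations of libraries of the same number in different groups had a median r of -0.022 in liver and 0.018 in kidney. Between liver and kidney it was 0.072 for 1 label number and -0.037 for other numbers of the same group. Of these pairs 39.3% and 19.6% had an r over 0.1. Whether 1 label number marks 1 animal in both tissues is not given, and the fits of both tissues took all libraries as independent. With the replicate block 17 members were called in the liver PCE trend and 35 between the tissues, and no count changed by more than 1.5 times apart from liver PCE at 6 mmol/kg. The spread of liver vehicle libraries, and few counts for members of 2 or more transcripts and for the tissue forms, limit what these data can show.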
